A study of Mus musculus with 10 samples.

Results

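Galectins are small proteins that bind beta-galactoside sugars on glycoproteins and glycolipids, and 7 genes of this family and its close associates were followed in mouse platelet RNA. Their rows were taken by symbol, from a list drawn up with earlier results of these data known, as Lgals1, Lgals3, Lgals4, Lgals8, Lgals9, Lgalsl and Lgals3bp, and each had a row among the 53819 genes of the count files. The platelets came from P7 mice (taken to mean postnatal day 7) and from mice labelled adult, with 5 libraries at each age. Strain, sex, genotype, adult age in weeks and any pooling of animals are not stated in the labels used, so p-values measure only the spread between these libraries, which may be technical. P7 libraries held 19431863 to 25029931 counts each, and adult libraries 19541997 to 23291269.

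Galectins lack a signal for the classical secretory route, yet they leave cells and cross-link glycans at the surface, and inside cells they bind sugars exposed on damaged lysosomes. They differ in build: galectin-1 is a prototype galectin that forms dimers, galectin-3 is a chimera with a long N-terminal tail, and galectin-4, galectin-8 and galectin-9 carry a pair of sugar-binding domains on 1 chain. Platelets have no nucleus and carry RNA from their parent megakaryocytes. Human platelets respond to added galectin-1 and galectin-8, and the integrin made by Itga2b and Itgb3 is a known ligand on their surface. Lgalsl encodes a galectin-related protein that lacks the usual sugar binding, and Lgals3bp encodes a secreted, heavily glycosylated protein that binds galectin-3.

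Lgals9 and Lgals3bp are shown by the bases around their start sites because both rose at P7, and because the windows differ in the motif discussed here. The rise of Lgals3bp was the less secure, as given below. Lgals3 also rose, but its window is not printed. RefSeq entries on GRCm38.p6 were found for 6 of the 7 members, but not for Lgals1, and each covers 250 bases before to 50 after the annotated start. The Lgals9 window is chr11:78984875-78985174 on the minus strand, and that of Lgals3bp is chr11:118401910-118402209 on the minus strand. Capitals mark every pair of GAAA units separated by 2 bases, on either strand, a spacing that interferon regulatory factors are known to bind.

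Lgals9 promoter: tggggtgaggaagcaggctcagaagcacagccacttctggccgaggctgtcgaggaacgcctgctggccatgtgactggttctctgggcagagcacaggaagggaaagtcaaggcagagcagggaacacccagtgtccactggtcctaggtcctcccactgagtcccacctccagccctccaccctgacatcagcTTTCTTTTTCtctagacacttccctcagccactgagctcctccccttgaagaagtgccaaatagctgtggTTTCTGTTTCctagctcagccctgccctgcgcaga

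Lgals3bp promoter: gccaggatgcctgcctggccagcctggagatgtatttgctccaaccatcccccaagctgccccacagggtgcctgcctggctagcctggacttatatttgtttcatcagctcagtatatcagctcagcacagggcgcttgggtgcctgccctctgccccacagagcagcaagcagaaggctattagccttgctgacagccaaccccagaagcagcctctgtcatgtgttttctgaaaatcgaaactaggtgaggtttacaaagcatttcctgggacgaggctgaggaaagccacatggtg

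The Lgals9 window held 2 matches, both read as the reverse complement, with their first bases at position 196 and position 266 of the 300 printed. None was found in the windows of Lgals3, Lgals3bp, Lgals4, Lgals8 or Lgalsl. The Lgals3bp window does hold a pair of GAAA units at a wider spacing, which the search did not count. Among all 32851 promoter entries of the same length, 3.44% held at least 1 match and 0.225% held 2 or more. The motif was picked after the letters had been read, and a match is a string of letters, not evidence of binding. Of 4 other motifs searched on both strands, AGATAA and CCGGAA had no match in any of the 6 windows (11.2% and 14.9% of all entries hold one). TGTGGT had 1 match in Lgals9 and 1 in Lgals8 (16.8% of entries), the one in Lgals9 sharing 1 base with its second capitalised stretch. GGGCGG had 2 matches in Lgals3, 3 in Lgalsl and 1 in Lgals4 (35.7% of entries).

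Lgals9 was the member with the largest age difference, and 4 of the 6 members that could be tested were higher at P7. Galectin-1 and galectin-3 RNA rose with it, galectin-3 binding protein RNA rose by less, and galectin-8 RNA fell. Lgals4 was too low to test. Counts were scaled between libraries by TMM, which sets most genes equal on average, and levels are TMM-scaled CPM, counts relative to the scaled library size. A call means an adjusted p under 0.05 in the quasi-likelihood test of edgeR, adjusted by Benjamini-Hochberg over 8198 genes. By that rule 27.7% of all tested genes were called, 13.8% higher and 13.9% lower at P7, beside 4 members higher and 1 lower of 6. The Lgals3bp call was lost in 10 of 24 alternative fits, and those of Lgals3 and Lgals8 in 5 of 23 each. The median log2 fold change, P7 over adult, was 0.97 over the 6 tested members and 0.05 over all tested genes. In bulk RNA a change in the number of cells of a type and a change in RNA per cell cannot be told apart.

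Lgals9, which encodes galectin-9, a galectin that binds glycoprotein receptors on blood and immune cells, stood at 112, 124, 155, 118 and 84.5 CPM in P7 libraries A, B, C, E and I. In adult libraries A, B, C, G and H it stood at 29.6, 26.4, 14.4, 16.0 and 18.3 CPM. Each P7 library was thus above each adult library, with a wide gap between the lowest P7 value and the highest adult one. The means were 119 ± 25.4 CPM at P7 and 20.9 ± 6.72 CPM in adult mice (SD, n = 5 each). Lgals9 rose by 2.50 ± 0.23 on the log2 scale (SE), or 5.67-fold, at an adjusted p of 8.77e-06 in the quasi-likelihood test of edgeR. Of the 8198 tested genes, 1.34% had a log2 fold change at least as high. Leaving out each library in turn gave log2 fold changes of 2.38 to 2.65 for Lgals9, all called.

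**Figure D1:**
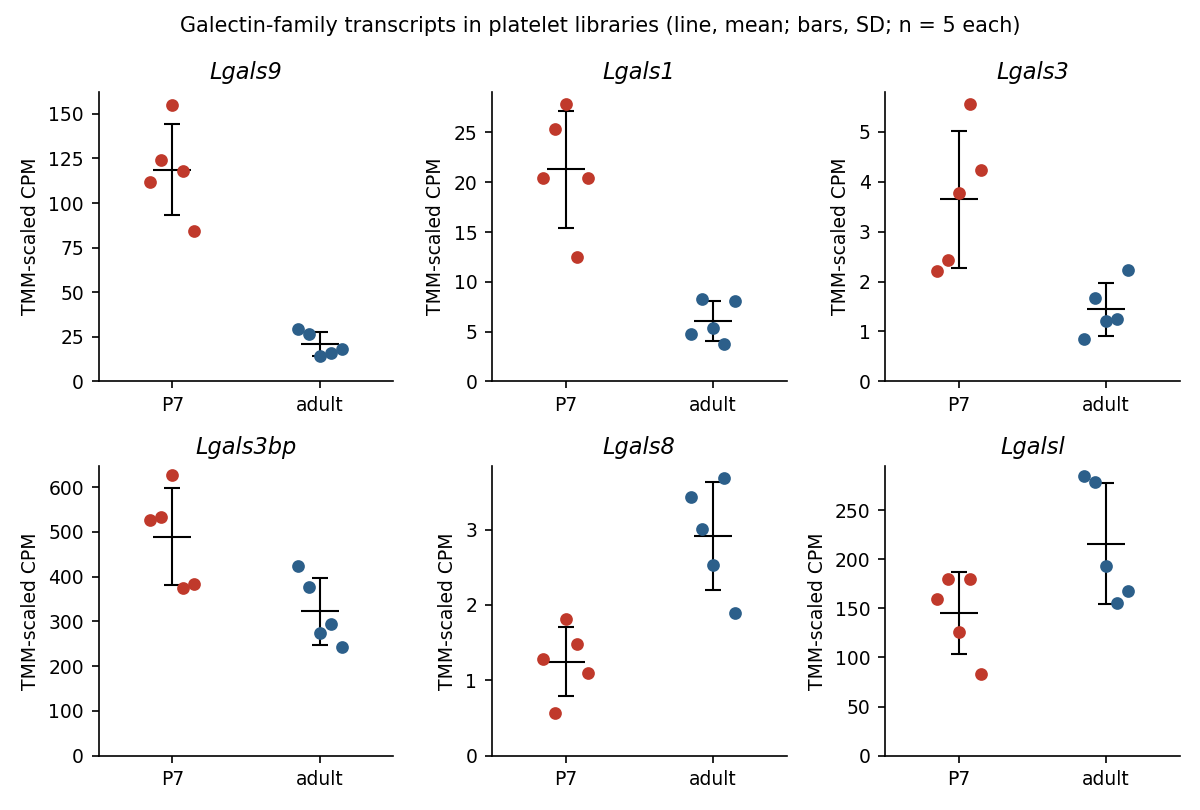
TMM-scaled CPM of the 6 tested members in each P7 and adult library (points), with the mean (line) and SD (bars) of 5 libraries per age; each panel has its own axis from 0. Lgals9 lies between 84.5 and 155 CPM at P7 and between 14.4 and 29.6 CPM in adult mice, while the Lgalsl groups overlap.

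Lgals1, which encodes galectin-1, a homodimer that binds integrins and other surface glycoproteins, had 20.4, 25.4, 27.9, 12.4 and 20.4 CPM in P7 libraries A, B, C, E and I. In adult libraries A, B, C, G and H it had 4.77, 8.29, 5.41, 3.77 and 8.03 CPM. The groups did not overlap, and P7 E was the lowest of its group. The ages did not overlap for 2 members with P7 higher, Lgals9 and Lgals1, and for 1 with P7 lower, Lgals8, where 10.1% and 9.76% of all tested genes showed these patterns, 19.8% together. Lgals1 rose by 1.81 ± 0.27 on the log2 scale (SE), at an adjusted p of 0.000261 in the quasi-likelihood test of edgeR. The processed pseudogenes Lgals1-ps1 and Lgals1-ps2 have their own rows and had 0 counts in the 10 libraries.

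Lgals3, which encodes galectin-3, the chimera type best known from macrophages, was measured from few counts. It had 2.21, 2.43, 3.78, 5.56 and 4.24 CPM in P7 libraries A, B, C, E and I, from 47 to 139 counts per library. In adult libraries A, B, C, G and H it had 0.859, 1.68, 1.22, 1.24 and 2.24 CPM, from 18 to 39 counts. The groups touched, since adult H lay just above P7 A. Lgals3 rose by 1.34 ± 0.34 on the log2 scale (SE), at an adjusted p of 0.00953 in the quasi-likelihood test of edgeR.

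Lgals3bp held the most counts of the members at both ages. It had 527, 534, 627, 376 and 383 CPM in P7 libraries A, B, C, E and I, and 424, 378, 274, 294 and 243 CPM in adult libraries A, B, C, G and H. P7 A, B and C were above every adult library, while P7 E and I lay within the adult range. The log2 fold change was 0.60 ± 0.19 (SE), at an adjusted p of 0.0260 in the quasi-likelihood test of edgeR. This call was lost without any 1 of P7 A, B and C and adult C, G and H (log2 fold change of Lgals3bp 0.49 to 0.57, adjusted p = 0.0594 to 0.0762 in the same edgeR test). With the trend of each library with GC content of transcripts removed it was also lost, at 0.31 ± 0.18 (SE, adjusted p = 0.238 in the same edgeR test, where alternatives for this gene ran from 0.0100 to 0.375). Over the 8028 tested genes with a GC value, log2 fold change rose with GC content (Spearman correlation 0.27). In the fit without the trend Lgals9 stood at 2.38, Lgals1 at 1.55, Lgals3 at 1.02 and Lgals8 at -1.06. These 4 kept their calls.

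Lgals8, which encodes galectin-8, a binder of platelet integrin in human cells and a sensor of broken vesicles, went the other way. It had 1.29, 0.568, 1.81, 1.48 and 1.10 CPM in P7 libraries A, B, C, E and I, and 3.44, 3.01, 2.53, 3.68 and 1.89 CPM in adult libraries A, B, C, G and H. Every P7 library was below every adult library, but adult H lay close to P7 C. Lgals8 fell by 1.21 ± 0.33 on the log2 scale (SE), at an adjusted p of 0.0143 in the quasi-likelihood test of edgeR. These values rest on few counts, 11 to 45 in a P7 library and 33 to 86 in an adult one. In the GENCODE M21 annotation 155 of the 3688 exonic bases of Lgals8 overlap Heatr1 on the opposite strand, and whether counting used strand is not stated in the sources at hand.

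Lgalsl, the galectin-related gene, did not pass. It had 159, 180, 126, 180 and 82.8 CPM in P7 libraries A, B, C, E and I, and 285, 279, 193, 156 and 167 CPM in adult libraries A, B, C, G and H. The groups overlapped, with adult A and B above the rest. Its log2 fold change was -0.57 ± 0.23 (SE, adjusted p = 0.0797 in the quasi-likelihood test of edgeR). It passed without adult G, at -0.69, and in the 6 libraries lettered A to C alone, at -0.74 (adjusted p = 0.0486 and 0.0298 in the same edgeR test, where alternatives for this gene ran from 0.0289 to 0.833).

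Lgals4, which encodes galectin-4 of gut epithelium, had 5 counts over the 5 P7 libraries and 7 over the 5 adult ones. It was seen in P7 A and C and in adult A, C and H, at 4 counts or fewer in each library. No difference could be measured at this depth, where 3 counts correspond to 0.120 to 0.154 CPM at P7 and 0.129 to 0.154 CPM in adult mice. Among galectin genes outside the 7, Lgals7 had 11 counts over the P7 libraries and 2 over the adult ones, and Lgals2 had 5 and 0. Lgals12 and Grifin had 0 counts in each library, and Lgals6, a close copy of Lgals4 in some mouse strains, had no row.

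**Figure D2:**
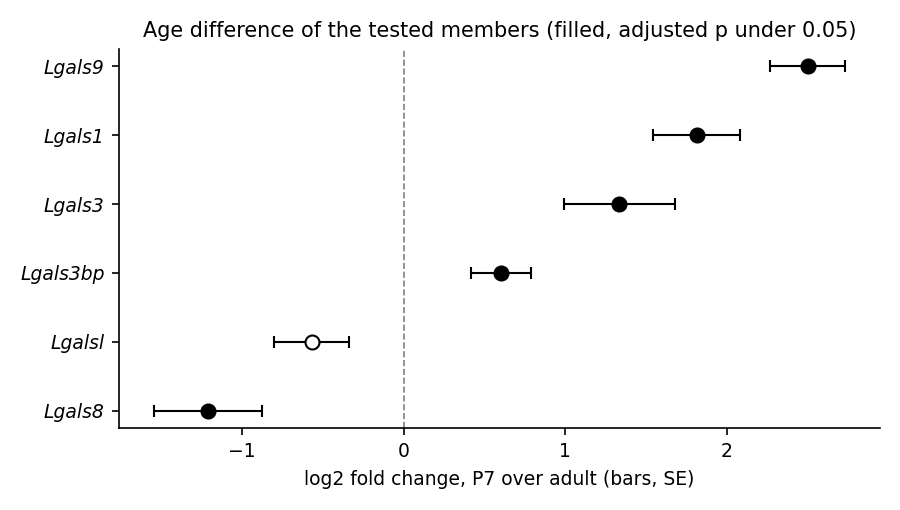
Log2 fold change, P7 over adult, of the 6 tested members with its SE (bars); filled points passed at an adjusted p under 0.05. Lgals9 is at 2.50, Lgals1 at 1.81, Lgals3 at 1.34 and Lgals3bp at 0.60, with Lgalsl at -0.57 (open, not passed) and Lgals8 at -1.21.

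To compare levels between genes, values were divided by exon length (GENCODE M21, by symbol), as mean TMM-scaled CPM per kb. At P7 the order was Lgals3bp at 172, Lgals9 at 55.6, Lgalsl at 35.4, Lgals1 at 23.6, Lgals3 at 1.96, Lgals8 at 0.338 and Lgals4 at 0.0174 CPM per kb. In adults it was Lgals3bp at 113, Lgalsl at 52.5, Lgals9 at 9.80, Lgals1 at 6.71, Lgals8 at 0.789, Lgals3 at 0.779 and Lgals4 at 0.0309 CPM per kb. On this per-kb scale Lgals9 and Lgalsl therefore changed places. In CPM not divided by length the Lgalsl mean was the higher at both ages, at 145 against 119 CPM at P7, so the change of places rests on the lengths used. The per-kb level of Lgals9 exceeded that of Lgalsl in 5 of 5 P7 libraries and in 0 of 5 adult ones, although the P7 ranges of the genes overlapped (39.5 to 72.6 for Lgals9 and 20.1 to 43.7 CPM per kb for Lgalsl). Neighbours whose ranges also overlapped were Lgalsl and Lgals1 at P7, and Lgals9 with Lgals1 and Lgals8 with Lgals3 in adult mice. Which isoforms were present is not known from gene counts, so the length used is an upper one.

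**Figure D3:**
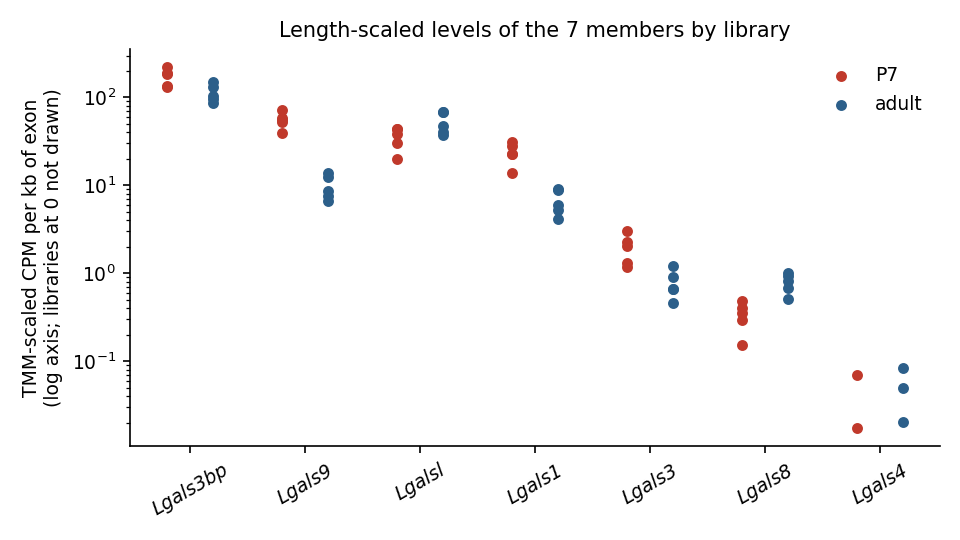
TMM-scaled CPM per kb of exon for the 7 members in each library on a log axis, ordered by the P7 mean; libraries with no count are not drawn. Lgals9 lies above Lgalsl at P7 (means 55.6 and 35.4) and below it in adult mice (9.80 and 52.5).

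The split of counts among the members was then compared between ages, as shares that are not divided by length and so do not rank the genes. Lgals9 held 13.6, 14.3, 16.5, 17.0 and 14.7% of the summed counts of the 7 members in P7 libraries A, B, C, E and I, and 3.97, 3.80, 2.93, 3.37 and 4.15% in adult libraries A, B, C, G and H. Its share averaged 15.2 ± 1.47% at P7 and 3.64 ± 0.491% in adult mice (SD, n = 5 each; p = 0.0079 in a two-sided exact permutation test, or 0.0238 adjusted over 3 measures). That p is the smallest that splits of 5 and 5 libraries allow. Lgalsl held 18.8 ± 5.12% at P7 and 37.7 ± 2.83% in adult mice, and Lgals3bp 62.6 ± 5.13% and 56.8 ± 3.02% (SD, n = 5 each). The summed level of the 7 members was 780 ± 145 CPM at P7 and 569.9 ± 141 CPM in adult mice (SD, n = 5 each; exact permutation p = 0.063, or 0.095 adjusted). Without Lgals9 the sum was 661 ± 123 CPM at P7 and 549 ± 135 CPM in adult mice (exact permutation p = 0.21, adjusted 0.21). Neither sum passed.

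Lgals9 was then set against each other tested member as a ratio of counts within each library, which does not depend on scaling between libraries. There were 5 pairs, and p-values come from two-sided exact permutation tests adjusted over them. Relative to Lgals8 the log2 ratio of Lgals9 was 6.61 ± 0.615 at P7 and 2.82 ± 0.493 in adult mice (SD, n = 5 each), a difference of 3.80 with a 95% interval of 3.13 to 4.67 (exact permutation adjusted p = 0.0132). Relative to Lgalsl it was -0.26 ± 0.41 at P7 and -3.38 ± 0.22 in adult mice (SD, n = 5 each), a difference of 3.11 with an interval of 2.67 to 3.67 (exact permutation adjusted p = 0.0132). Relative to Lgals3bp it was -2.04 ± 0.22 at P7 and -3.97 ± 0.24 in adult mice (SD, n = 5 each), a difference of 1.93 with an interval of 1.60 to 2.27 (exact permutation adjusted p = 0.0132). In these 3 pairs no P7 library overlapped an adult one.

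The galectin-1 and galectin-3 genes stood closer to Lgals9. Relative to Lgals3 the log2 ratio of Lgals9 was 5.07 ± 0.668 at P7 and 3.85 ± 0.764 in adult mice (SD, n = 5 each), a difference of 1.23 with an interval of 0.28 to 2.23 (exact permutation p = 0.040, adjusted 0.0496). This call was lost without any 1 of P7 A, B and C and adult B, C, G and H, at differences of 1.02 to 1.25 (exact permutation adjusted p = 0.0694 to 0.0952, where alternatives for this ratio ran from 0.0198). Relative to Lgals1 the log2 ratio of Lgals9 was 2.45, 2.29, 2.48, 3.24 and 2.05 in P7 libraries A, B, C, E and I, and 2.63, 1.67, 1.41, 2.08 and 1.19 in adult libraries A, B, C, G and H. Adult A lay above all P7 libraries but P7 E. The difference of 0.71 had an interval of -0.10 to 1.47 and did not pass (exact permutation p = 0.071, adjusted 0.071), which leaves room for no difference and for one of more than 2-fold. Without adult A it was 0.92 and passed (exact permutation adjusted p = 0.0238, where alternatives for this ratio ran up to 0.135).

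**Figure D4:**
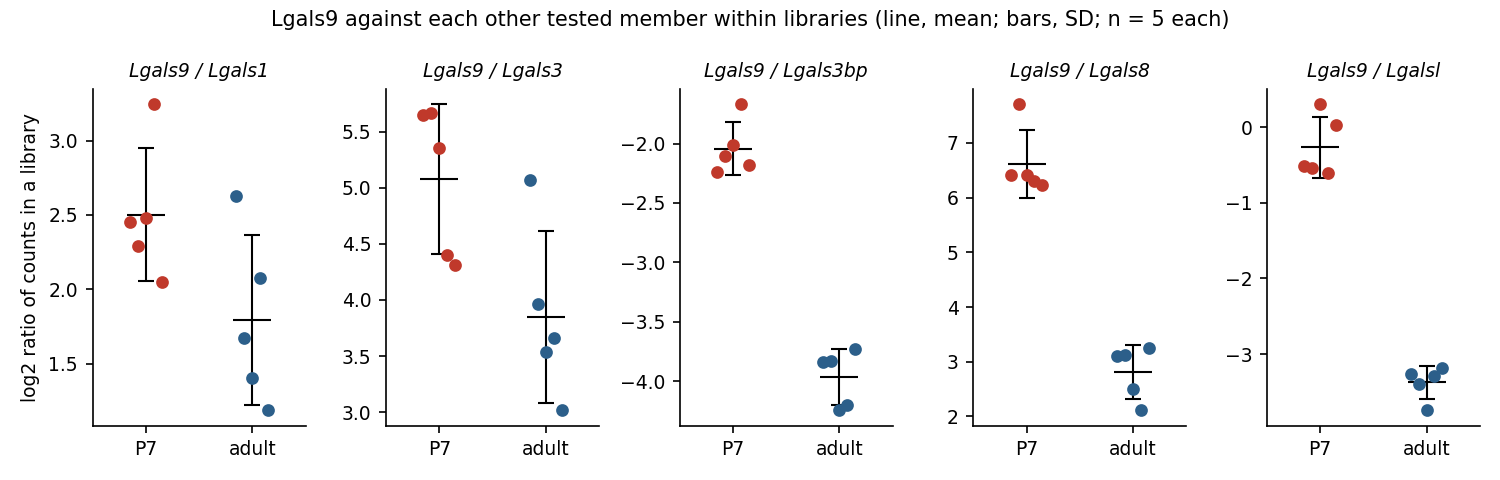
Log2 ratio of Lgals9 counts to those of each other tested member within a library, for P7 and adult libraries (points), with the mean (line) and SD (bars) of 5 libraries; each panel has its own axis. The groups are apart for Lgals3bp, Lgals8 and Lgalsl and overlap for Lgals1 and Lgals3, with adult A high in both.

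The spread of the tested members within an age ran from 21.4% to 37.8% of the mean. The coefficient of variation of Lgals9 was 21.4% at P7 and 32.1% in adult mice, that of Lgals3bp 22.1% and 23.4%, and that of Lgalsl 28.5% at both ages. It was 27.7% and 33.2% for Lgals1, 37.8% and 36.5% for Lgals3, and 37.1% and 24.7% for Lgals8. Libraries did not rank alike for all members. P7 E was lowest of its group for Lgals1 and Lgals3bp and highest for Lgals3, and P7 I was lowest for Lgals9 and Lgalsl.

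The genes whose pattern over the 10 libraries was most like that of Lgals9 were found by the mean absolute difference of log2(CPM + 1) values, each centred on its own mean, over the 2024 other genes whose mean reached 20 CPM. This is a description, since the age difference of Lgals9 enters the measure. Tarbp2, which encodes a double-stranded RNA-binding partner of Dicer, was nearest at 0.24, followed by the GTPase gene Rac2 at 0.25 and the lysophospholipid acyltransferase gene Lpcat3 at 0.26. The tropomyosin gene Tpm2 at 0.34, the actin-binding Cotl1 at 0.36 and the protease inhibitor gene Slpi at 0.36 came next. Tarbp2 had 40.0 to 64.9 CPM at P7 and 8.53 to 14.5 CPM in adult mice, and Lpcat3 had 25.3 to 77.2 CPM at P7 and 7.24 to 15.8 CPM in adult mice. Of the members abundant enough to enter, Lgals3bp was at 0.94 and Lgalsl at 1.53, where the median was 1.27 over 1927 genes, gene models, pseudogenes and mitochondrially encoded genes left out.

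Genes that build or cap the sugars that galectins bind were called at shares near the 27.7% of all tested genes. Of 23 listed genes of galactose-bearing glycan synthesis 10 were tested, and 2 were higher and 1 lower (30%), with a median log2 fold change of 0.35 against 0.05 over all tested genes. Man2a2, a Golgi mannosidase of N-glycan processing, rose by 1.54 ± 0.29 (SE), with 4.75 to 10.2 CPM at P7 and 1.81 to 4.36 CPM in adult mice. Mgat1, whose product starts complex N-glycans, rose by 0.83, while C1galt1, the enzyme that adds galactose to O-glycans, fell by 0.79 on the log2 scale. C1galt1 had 23.4 to 46.3 CPM at P7 and 58.9 to 82.7 CPM in adult mice. Of 11 listed genes of sialic acid capping 9 were tested, 1 was higher and 1 lower (22.2%), and the median was -0.12. Cmas, which activates sialic acid, rose by 0.53 and averaged 490 ± 63.8 CPM at P7 and 340 ± 44.5 CPM in adult mice (SD, n = 5 each). The sialyltransferase gene St3gal6 fell by 0.87 on the log2 scale, at 1.14 to 2.05 CPM at P7 and 2.14 to 3.95 CPM in adult mice. Adjusted p-values of these 5 genes ran from 0.00129 to 0.0373 in the quasi-likelihood test of edgeR.

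Of 20 listed platelet genes for surface glycoproteins and other candidate ligands 17 were tested, and 6 were higher and 4 lower (58.8%), beside 13.8% higher and 13.9% lower of all tested genes. The median log2 fold change was 0.26, and the difference of these shares was not tested. Basp1, a membrane-attached cytoplasmic protein gene and not a surface glycoprotein, rose by 2.57 from small counts, averaging 3.38 ± 1.53 CPM at P7 and 0.569 ± 0.245 CPM in adult mice (SD, n = 5 each). Thbs1, which encodes the granule glycoprotein thrombospondin-1, rose by 1.26 and averaged 5219 ± 1574 CPM at P7 and 2172 ± 688 CPM in adult mice (SD, n = 5 each). Gp1bb, a subunit gene of the receptor for von Willebrand factor, rose by 1.22, with 27.6 to 53.5 CPM at P7 and 12.1 to 25.3 CPM in adult mice. Itga2, the collagen-binding integrin subunit gene, fell by 0.88 on the log2 scale, with 71.2 to 97.2 CPM at P7 and 97.2 to 217 CPM in adult mice. Adjusted p-values of these 4 genes ran from 0.000511 to 0.00706 in the quasi-likelihood test of edgeR.

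Few galectin receptors of immune cells were measurable in platelet RNA. Of 15 listed, 4 were tested, 0 were higher and 1 was lower (25%, against 27.7% of all tested genes), the pattern-recognition lectin gene Clec7a, at 0.291 ± 0.193 CPM at P7 and 1.13 ± 0.623 CPM in adult mice (SD, n = 5 each; log2 fold change -1.92 ± 0.63, SE, adjusted p = 0.0326 in the quasi-likelihood test of edgeR). Of 22 listed intracellular partners 19 were tested, and 1 was higher and 3 lower (21.1%, also near the share of all tested genes), with a median of -0.04. Lamp2, the lysosomal membrane glycoprotein gene, fell by 0.89 ± 0.13 on the log2 scale (SE), to 712 ± 62.7 CPM at P7 against 1322 ± 188 CPM in adult mice (SD, n = 5 each). Tsg101, of the sorting machinery that galectin-3 joins, rose by 0.56, while the log2 fold changes of Nup98 and Ctnnb1 were -1.56 and -0.57. The Nup98 value rests on low levels, 0.161 to 0.640 CPM at P7 and 0.668 to 1.17 CPM in adult mice. Adjusted p-values of these 4 genes ran from 0.00021 to 0.0337 in the quasi-likelihood test of edgeR.

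Platelet identity markers, 14 of 14 with counts, summed to 68675 to 90840 CPM at P7 and 67009 to 95579 CPM in adult mice. The sums overlapped although single markers differed. Of 14 tested, 5 were higher and 3 lower at P7, beside 13.8% higher and 13.9% lower of all tested genes. Itga2b averaged 27108 CPM at P7 and 18525 CPM in adult mice, while Ppbp averaged 7233 CPM at P7 and 21408 CPM in adult mice. Macrophages express galectin-3, galectin-9 and Lgals3bp, and of 16 monocyte and macrophage markers 3 were tested, with 0 higher and 1 lower. Their sum, mostly Lyz2, was 2252 to 3471 CPM at P7 and 2922 to 6092 CPM in adult mice, and Csf1r, Adgre1 and Cd68 stayed at or under 1.93 CPM in each library. The sum of the neutrophil markers was higher at P7, as Lgals9 was. It stood at 39.7 to 70.3 CPM at P7 and 13.0 to 36.4 CPM in adult mice, with 1 higher of 2 tested and 14 listed. That sum was mostly Trem1, while S100a8 and S100a9 were under 1 CPM in each library and Cxcr2 and Ly6g had 0 counts. The 12 listed neutrophil markers with counts each had a higher mean at P7. For S100a8 the means were 0.584 against 0.104 CPM, and for S100a9 0.624 against 0.171 CPM. Those other than Trem1 and Mmp8 were too low to test. Erythroid markers summed to 976 to 2551 CPM at P7 and 580 to 1777 CPM in adult mice. Of 12 tested 3 were higher, Fech, Car2 and Sptb, and 0 lower, where 27.7% of all tested genes were called. The erythroid sum was mostly Hba-a1, at means of 1493 CPM at P7 and 905 CPM in adult mice, which was not called. B cell markers, led by Ighm, summed to 7.16 to 22.3 CPM at P7 and 2.98 to 5.87 CPM in adult mice. Hepatocyte markers, led by Afp, summed to 6.96 to 11.8 CPM at P7 and 19.6 to 34.3 CPM in adult mice. The ages did not overlap for either list. The hepatocyte difference was that of Afp, at means of 6.88 CPM at P7 and 26.9 CPM in adult mice. Alb and Serpina1a had 0 counts, and Trf, Ttr and Apoa1 had higher means at P7, at 1.28 against 0.521 CPM for Trf, which was not called. T and NK cell markers summed to 7.12 to 10.6 CPM at P7 and 10.6 to 19.0 CPM in adult mice, with 0 higher and 1 lower of 4 tested. Eosinophil and basophil markers summed to 68.9 to 93.9 CPM at P7 and 75.8 to 116 CPM in adult mice, with 1 higher and 0 lower of 3 tested. Endothelial markers summed to 907 to 1204 CPM at P7 and 798 to 1193 CPM in adult mice. That sum was mostly Pecam1, at means of 767 and 837 CPM, which was not called. Of 6 endothelial markers tested 2 were higher, Cdh5 and Plvap, and 0 lower. Plvap averaged 123 CPM at P7 and 45.7 CPM in adult mice.

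With the summed level of a marker list as a covariate Lgals9 kept its call, at log2 fold changes of 2.60 for erythroid, 2.99 for monocyte and 3.07 for neutrophil markers (adjusted p = 0.000128, 0.000105 and 0.0152 in the quasi-likelihood test of edgeR, where alternatives for this gene ran from 6.14e-22 to 0.0152). Lgals1 kept its call with the erythroid and monocyte covariates, at 1.38 and 1.96, and not with the neutrophil one, at 2.12 (adjusted p = 0.00772, 0.00633 and 0.112 in the same edgeR test). Lgals3 and Lgals8 lost theirs with each of the 3, at 1.18 to 1.61 (adjusted p = 0.0517 to 0.258 in the same edgeR test) and at -1.59 to -0.95 (0.106 to 0.223). Lgals3bp kept its call with the monocyte covariate, at 0.90, and not with the erythroid or neutrophil one, at 0.71 and 0.76 (adjusted p = 0.0268, 0.0716 and 0.375 in the same edgeR test). Age explained 39.1%, 53.6% and 76.9% of the variance of the erythroid, monocyte and neutrophil levels, and 1549, 1353 and 183 genes were called in these fits. These levels were mostly those of Hba-a1, Lyz2 and Trem1, so each covariate stands for little more than that gene. The neutrophil fit, added after the data were seen, gave Lgalsl a log2 fold change of 0.45, above 0, which did not pass (adjusted p = 0.576 in the same edgeR test).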

How the data were processed

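RNA from mouse platelets was sequenced in 10 libraries, 5 per age, after Trizol isolation and low-input SMARTer amplification, per the labels' protocols. The authors deposited whole-number counts per gene symbol, not normalized. The submitters' processing notes name Salmon 1.5.2, featureCounts from Subread 2.0.1, STAR 2.7.9a and fastp 0.23.1 without saying what each did. The genome build and use of strand are not given in the sources used, so coordinates and sequences are RefSeq's on GRCm38.p6. Genes were kept with filterByExpr (minimum count 10, minimum total 15), scaled by TMM and tested with edgeR 4.0.16 (limma 3.58.1, R 4.3.3), robust quasi-likelihood, age as the only term. Ratios used a pseudocount of 0.5 counts, and their 95% intervals hold the shifts that the permutation test did not reject. No molecular identifiers were used, so the count floors cover only counting error. No 2 libraries were identical, and none agreed within counting noise. Tests were checked on simulated data. Named genes were the members, other galectin genes, up to 4 called genes per list with the smallest p, and the 6 genes nearest to Lgals9, passing over gene models, pseudogenes and mitochondrial genes. The members and lists were chosen with earlier results of these data known. Alternatives were other scalings, DESeq2 1.42.0, limma-voom, other filters, replicate letters as a block, marker covariates and each library left out. The GC and neutrophil fits were added after the data were seen.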

Additional observations from a re-analysis of the deposited data

Results flagged for a closer look

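The log2 ratio of Lgals9 to Lgals8 was 7.71 in P7 B, far from the other P7 libraries at 6.24 to 6.42 for the spread of its group. It rests on 11 counts of Lgals8 in that library. Of 28 groups examined 1 stood out in this way, and chance flags about 1 in 20.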

How the results depend on the processing

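Lgals9 was called in all 24 alternatives, at log2 fold changes of 2.38 to 3.07. Its ratios to Lgals8, Lgalsl and Lgals3bp and its share of member counts kept direction, and their calls wherever a test was run. Of all genes, 2272 were called, against 1215 of the 2803 with a mean of at least 10 CPM, 1353 with the monocyte and 183 with the neutrophil covariate. The 5 called members became 3, 3 and 1 in these fits and 2 with the erythroid covariate; the 10 CPM filter removed Lgals3 and Lgals8. The neutrophil covariate turned Lgalsl to 0.45. With the GC trend removed, 2032 of 8028 genes and 4 members were called. Among the named genes of the lists, transcripts of those higher at P7 had 46.3 to 63.1% GC, and of those lower 39.8 to 51.8%. Leaving out each library gave differences in the Lgals9 ratio of 0.52 to 0.92 against Lgals1 and 1.02 to 1.53 against Lgals3, and 4 or 5 called members. With the replicate block over the letters A to C, 1416 genes and 3 members were called (Lgals9 at 2.49, Lgals1 and Lgalsl, but not Lgals3, Lgals8 or Lgals3bp), against 1886 and 4 in the same libraries without it, where Lgals3bp was also called. Correlations of same-letter deviations were -0.038 to 0.061, so the letters were not taken as pairs. The causes were not tested. Lgals3 and Lgals8 had at most 139 counts per library.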
